A study of Homo sapiens with 6 samples.

Results

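A set of 10 non-coding RNA genes that carry small nucleolar RNAs (snoRNAs) in their introns was followed in HT29, a colon cancer cell line. The 10 genes, GAS5, SNHG1, SNHG3, SNHG5, SNHG6, SNHG7, SNHG8, SNHG12, SNHG15 and ZFAS1, were chosen by symbol from the 26255 gene rows of each library, and all 10 had a row. The cells received YM155, a small molecule known as a suppressor of survivin expression, or DMSO, the solvent control, for 24 h, and messenger RNA of 3 libraries per treatment was sequenced. Whether the 3 libraries of a treatment were grown as separate cultures is not given, so every p-value below reflects the spread among these libraries alone, and that spread could be technical. The titles of the treated libraries write YM115, whereas their treatment field and the study's title write YM155.

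Each of these genes is transcribed and spliced like an mRNA gene, but the products with a known housekeeping role are cut from its introns. Box C/D snoRNAs guide 2′-O-methylation of ribosomal RNA and box H/ACA snoRNAs guide pseudouridylation. The spliced exons that remain often begin with a run of pyrimidines (a terminal oligopyrimidine, or TOP, start, shared with ribosomal protein mRNAs), associate with ribosomes, and carry only short open reading frames, so several of them are known to be degraded by nonsense-mediated decay (NMD) while they are translated. They are known to accumulate when translation or NMD is blocked, and the comparison asked whether the 10 transcripts rose together with YM155.

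Levels are the deposited FPKM, in which fragments mapped to a gene are divided by its transcript length and by the size of the library. No read totals come with them. The most common ratio between low values gave the worth of 1 read relative to DMSO replicate 1. It was 1.52 to 1.78 times in the YM155 libraries and 0.997 and 1.11 times in the other DMSO libraries. A read thus weighed more in the YM155 libraries. How the library size was set is not given, so whether these libraries were shallower was not tested. FPKM values summed to 678699 to 696067 in the YM155 libraries and 538478 to 563296 in the DMSO libraries. All 8 markers of colon epithelium reached 1 FPKM in at least 3 libraries, with CDX2 the lowest at 0.686 to 0.973 FPKM with YM155 and 2.91 to 3.73 FPKM with DMSO. The leukocyte genes PTPRC and CD3E, the fibroblast genes COL1A1, COL1A2, DCN and PDGFRB and the endothelial genes PECAM1 and VWF stayed below 1 FPKM in every library. CD68, a lysosomal gene of macrophages that other cells also express, was at 78.9 to 87.8 FPKM with YM155 and 3.81 to 5.56 FPKM with DMSO.

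The starts of the host genes are shown because a pyrimidine start is known from mRNAs whose translation is regulated with growth. RefSeq promoters (GRCh38.p14) were at hand for 8 of the 10 genes, the exceptions being SNHG6 and SNHG15. Each line gives 40 bases before and 30 bases from the annotated start, 5′ to 3′ on the gene's strand. Capitals mark TATAA where it begins 40 to 20 bases before the start, and a pyrimidine start, defined as a C at the first base followed by at least 4 bases that are C or T.
SNHG12 (chr1:28581844-28581913, minus strand): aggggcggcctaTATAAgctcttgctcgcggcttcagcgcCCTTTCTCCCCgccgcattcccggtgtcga
ZFAS1 (chr20:49278602-49278671, plus strand): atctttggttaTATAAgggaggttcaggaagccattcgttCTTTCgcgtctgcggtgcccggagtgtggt
SNHG5 (chr6:85678704-85678773, minus strand): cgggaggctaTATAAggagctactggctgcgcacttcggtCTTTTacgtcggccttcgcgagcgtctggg
SNHG7 (chr9:136728155-136728224, minus strand): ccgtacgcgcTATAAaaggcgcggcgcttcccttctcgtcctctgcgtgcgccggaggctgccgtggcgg
SNHG8 (chr4:118278722-118278791, plus strand): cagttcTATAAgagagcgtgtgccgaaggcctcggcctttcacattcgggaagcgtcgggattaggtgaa
SNHG1 (chr11:62855856-62855925, minus strand): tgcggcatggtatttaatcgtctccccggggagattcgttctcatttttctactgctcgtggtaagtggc
SNHG3 (chr1:28505903-28505972, plus strand): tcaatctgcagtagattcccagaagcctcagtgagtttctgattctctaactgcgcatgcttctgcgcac
GAS5 (chr1:173869016-173869085, minus strand): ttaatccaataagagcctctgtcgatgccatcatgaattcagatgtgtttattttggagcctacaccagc

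A pyrimidine start by this definition stood at the annotated first base of 3 of the 8 genes, SNHG12 (a run of 11), ZFAS1 (5) and SNHG5 (5), and of 4.07% of all 35116 promoters in the table. TATAA stood in its window in 5 of the 8, SNHG5, SNHG7, SNHG8, SNHG12 and ZFAS1, and in 3.91% of all promoters. SNHG5, SNHG12 and ZFAS1 had both, as did 0.094% of all promoters. The definition reads only the annotated start, and cells may begin transcription a few bases from it. In the full promoter windows, 250 bases before to 50 after the start and on both strands, CACGTG, the E-box bound by MYC, occurred in SNHG7 and in 7.26% of all promoters. TGATGCAA, a core of C/EBP-ATF elements, occurred in none of the 8 and in 0.866% of all promoters, and TGACNNNGC, the antioxidant response element, occurred in none of the 8 and in 13.3% of all promoters.

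All 10 host genes rose with YM155 on the deposited scale by limma (log2 of FPKM + 1, adjusted p under 0.05 over 12035 tested genes), in which 43.6% of all tested genes also rose and 41.0% fell, 84.7% in all. Their ratios of mean FPKM ran between 1.12 and 3.60, and in all 10 the lowest YM155 library lay above the highest DMSO library, as it did for 44.4% of tested genes, while 85.9% of tested genes had groups that did not overlap in either direction. In bulk RNA a change in the mix of cells and a change in RNA per cell cannot be told apart. SNHG12, ZFAS1, SNHG6, SNHG15 and GAS5 were higher under every scaling tried, SNHG7 under all but quantile normalization, where it did not pass, and SNHG1, SNHG3, SNHG5 and SNHG8 rose only with the deposited and the median-of-ratios scale.

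**Figure D1:**
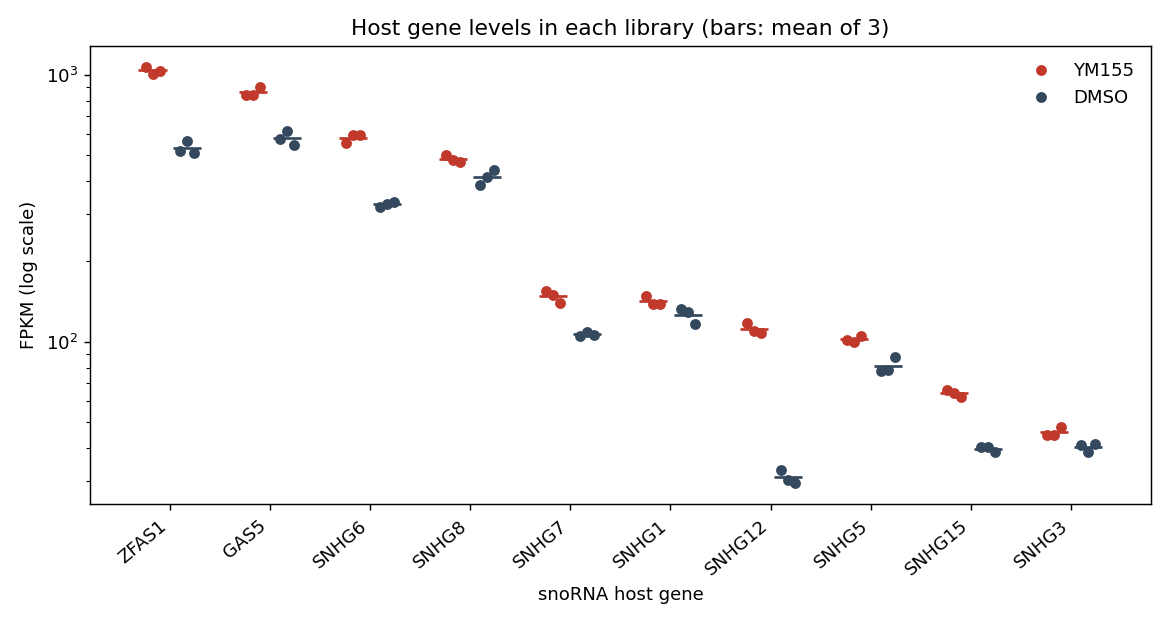
FPKM of each host gene in each library on a log axis, YM155 libraries in red left of DMSO libraries in dark blue, with a bar at the mean of 3 libraries. The SNHG12 libraries lie at 108 to 118 FPKM with YM155 and 29.5 to 33.1 FPKM with DMSO, the widest gap on this axis, and those of SNHG1, SNHG8 and SNHG3 nearly touch.

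Among the hosts of box C/D snoRNAs, GAS5 carries the largest set, with 10 SNORD genes and 1 SNORA gene inside its RefSeq bounds, and its RNA is known as a decoy of the glucocorticoid receptor that accumulates in growth-arrested cells. Its level was 840.2, 837 and 902 FPKM in the YM155 libraries and 575, 617 and 543 FPKM in the DMSO libraries. The YM155 libraries were all higher, with a ratio of 1.49 (859.5 ± 36.4 FPKM with YM155 and 578 ± 37.0 FPKM with DMSO, SD, n = 3 each; log2 fold change 0.57, SE 0.06, adjusted p = 1.1e-05 by limma).

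ZFAS1, which hosts 3 SNORD genes and whose spliced RNA is known to associate with ribosomes, stood at 1070.5, 1005 and 1035 FPKM in the YM155 libraries and 517, 563 and 509 FPKM in the DMSO libraries. It was the most abundant of the 10 with YM155 and second to GAS5 with DMSO. Its ratio was 1.96 (log2 fold change 0.97, SE 0.05, adjusted p = 1.7e-07 by limma). SNHG6, host of SNORD87, was at 555, 597 and 593 FPKM in the YM155 libraries and 321, 327 and 334 FPKM in the DMSO libraries. The nearest libraries of the groups were 220.5 FPKM apart, and the ratio was 1.78 (log2 fold change 0.83, SE 0.04, adjusted p = 1.8e-07 by limma).

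SNHG5, host of SNORD50A and SNORD50B, was at 102, 99.4 and 105 FPKM in the YM155 libraries and 77.4, 78.2 and 87.4 FPKM in the DMSO libraries, a ratio of 1.26 (log2 fold change 0.33, SE 0.05, adjusted p = 3.6e-04 by limma). DMSO replicate 3 was the highest of its group. SNHG1, with 8 SNORD genes, was at 148, 138 and 139 FPKM in the YM155 libraries and 133, 129 and 117 FPKM in the DMSO libraries. Its groups were 5.45 FPKM apart at the nearest libraries, and its ratio of 1.12 was the smallest of the 10 (log2 fold change 0.17, SE 0.06, adjusted p = 0.019 by limma). The call ended without YM155 replicate 1 (adjusted p = 0.056 by limma) and without DMSO replicate 3 (adjusted p = 0.066 by limma).

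Among the hosts of box H/ACA snoRNAs, SNHG8, host of SNORA24, was the most abundant, at 501, 478 and 469 FPKM in the YM155 libraries and 385, 413 and 438 FPKM in the DMSO libraries. The groups were 31.0 FPKM apart at the nearest libraries (ratio 1.17; log2 fold change 0.23, SE 0.05, adjusted p = 0.0034 by limma). SNHG7, host of 2 SNORA genes, was at 155, 149 and 140.1 FPKM in the YM155 libraries and 105, 108 and 106 FPKM in the DMSO libraries. The DMSO libraries of SNHG7 were the tightest group of any host gene, with a coefficient of variation of 1.48%, and the ratio was 1.39 (log2 fold change 0.47, SE 0.05, adjusted p = 1.0e-05 by limma).

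SNHG15, host of SNORA9, is known for a short-lived RNA. It was at 66.0, 64.5 and 62.3 FPKM in the YM155 libraries and 40.2, 40.2 and 38.5 FPKM in the DMSO libraries, a ratio of 1.62 (log2 fold change 0.68, SE 0.04, adjusted p = 5.7e-07 by limma). SNHG3, host of SNORA73A and SNORA73B, was at 44.9, 44.7 and 47.8 FPKM in the YM155 libraries and 41.0, 38.5 and 41.5 FPKM in the DMSO libraries. These groups were separated by 3.24 FPKM (ratio 1.14; log2 fold change 0.18, SE 0.05, adjusted p = 0.0075 by limma). SNHG3 shares its strand and part of its span with the coding gene RCC1, described with the neighbours.

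SNHG12 hosts 3 SNORA genes and 1 SNORD gene, and it moved most. Its level was 118, 109.7 and 108 FPKM in the YM155 libraries and 33.1, 30.4 and 29.5 FPKM in the DMSO libraries. Its ratio was 3.60 (112 ± 5.21 FPKM with YM155 and 31.0 ± 1.87 FPKM with DMSO, SD, n = 3 each; log2 fold change 1.82, SE 0.06, adjusted p = 7.1e-09 by limma), and it was the only one of the 10 past a log2 fold change of 1. The level of SNHG12 over that of SNHG3, both per length and from genes on chromosome 1, was 2.62, 2.45 and 2.25 in the YM155 libraries and 0.807, 0.789 and 0.712 in the DMSO libraries.

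The 10 genes did not move by one amount. Set against the DMSO mean, the YM155 libraries of SNHG12 lay at 3.47 to 3.79 times, those of ZFAS1 at 1.90 to 2.02 times, those of SNHG6 at 1.69 to 1.82 times, those of SNHG15 at 1.57 to 1.67 times and those of GAS5 at 1.45 to 1.56 times, and none of these 5 ranges overlapped another. SNHG7, at 1.32 to 1.45 times, overlapped GAS5. SNHG5, at 1.23 to 1.30 times, stood apart from SNHG7 and from SNHG8, while SNHG8 (1.14 to 1.22 times), SNHG3 (1.11 to 1.18 times) and SNHG1 (1.10 to 1.18 times) overlapped one another. These ranges hold the spread of the YM155 libraries only. Within groups the coefficient of variation of a host gene was 1.48% to 6.89%.

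By level, the order with YM155 was ZFAS1, GAS5, SNHG6, SNHG8, SNHG7, SNHG1, SNHG12, SNHG5, SNHG15 and SNHG3, and with DMSO it was GAS5, ZFAS1, SNHG8, SNHG6, SNHG1, SNHG7, SNHG5, SNHG3, SNHG15 and SNHG12. With YM155 the libraries of SNHG7 and SNHG1 overlapped, and with DMSO those of GAS5 and ZFAS1 and those of SNHG3 and SNHG15 did. SNHG12 was the least abundant of the 10 with DMSO and seventh with YM155. Together the 10 genes summed to 3599, 3522 and 3601 FPKM in the YM155 libraries and 2228, 2344 and 2244 FPKM in the DMSO libraries, which was 0.517% to 0.530% and 0.413% to 0.417% of all FPKM. GAS5 and ZFAS1 made up 52.3% to 53.8% of the summed level with YM155 and 46.9% to 50.3% with DMSO.

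Part of the shared rise moved with the scale and with abundance. The median log2 fold change was 0.52 for the 10 genes, 0.0245 for all 12035 tested genes and 0.34 for the 2757 tested genes with a mean of at least 30 FPKM, a level that all 10 exceed; of those 2757 genes 60.3% rose and 26.3% fell. On the deposited scale every host gene lay above the median of all tested genes, as 6 of the 10 did under quantile normalization, and 6 lay above that of the abundant genes, with SNHG5, SNHG8, SNHG3 and SNHG1 below it. Upper-quartile scaling moved the median of all genes by -0.31, scaling to a common sum by -0.28 and quantile normalization by -0.11, and the share of calls that were higher was 51.5% on the deposited scale, 36.4%, 37.4% and 45.8% under these. On them 6, 6 and 5 of the 10 genes rose and 2, 1 and 3 fell. Relative to the median of all genes, SNHG12 stood between 1.5 under quantile normalization and 1.80 under median-of-ratios scaling (log2), and ZFAS1 at 0.57 to 0.95 over the 4 scalings, against -0.18 to 0.15 for SNHG1 and -0.17 to 0.21 for SNHG8. Which scale is the right one for these libraries was not tested.

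**Figure D2:**
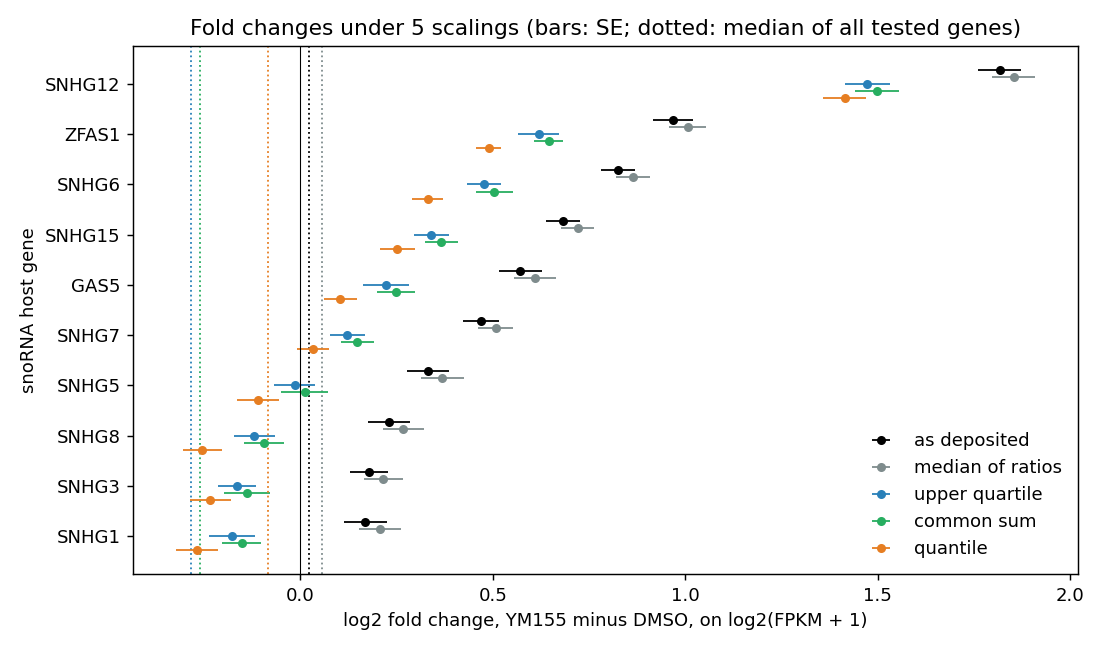
Log2 fold change of each host gene, YM155 minus DMSO on log2(FPKM + 1), as deposited and under 4 scalings, with the standard error as a bar and the median of all tested genes as a dotted line in the same colour. SNHG12, ZFAS1, SNHG6, SNHG15, GAS5 and SNHG7 stay right of 0 under all 5, while SNHG5, SNHG8, SNHG3 and SNHG1 cross to the left under upper-quartile scaling and quantile normalization.

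Other non-coding host genes did not share one direction. Of 13 listed genes 12 had a row and 11 were tested, of which 4 rose, 6 fell and 1 did not pass on the deposited scale, with a median log2 fold change of -0.16. Beside them, 43.6% of all tested genes rose and 41.0% fell. SNHG17 rose to 59.4 ± 3.21 FPKM with YM155, against 18.8 ± 0.811 FPKM with DMSO (SD, n = 3 each; log2 fold change 1.61), close in size to SNHG12. SNHG22 rose to 4.86 ± 0.683 FPKM with YM155, against 0.342 ± 0.140 FPKM with DMSO (SD, n = 3 each), and since it was tested only because its YM155 libraries pass 1 FPKM, it could hardly be called otherwise. EPB41L4A-AS1, chosen after its value was seen, rose 2.05-fold. SNHG11 (log2 fold change -1.17) and DANCR (-0.87), the host of an H/ACA snoRNA that is known as a regulator of differentiation, fell, and SNHG9 did not pass (35.6 ± 1.71 FPKM with YM155 and 36.6 ± 2.87 FPKM with DMSO, SD, n = 3 each).

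Protein-coding hosts, many of which are ribosomal protein or translation factor genes, were split as well. This list overlaps those below, so their counts are not separate. Its ribosomal protein genes are all in the ribosomal protein list. EEF1B2, EEF2, TPT1 and RACK1 are also among the other TOP mRNAs, and NOP56, NOP58 and DKC1 among the proteins that package snoRNAs. Of 41 tested, 18 rose, 7 fell and 16 did not pass on the deposited scale, with a median log2 fold change of 0.0444, but under upper-quartile scaling 8 rose and 29 fell. The deposited scale had 43.6% of all tested genes higher and 41.0% lower, and 60.3% and 26.3% of the abundant ones. TAF1D, a subunit of the RNA polymerase I selectivity factor whose introns hold several snoRNAs, rose to 322 ± 14.3 FPKM with YM155, against 75.0 ± 4.47 FPKM with DMSO (SD, n = 3 each; log2 fold change 2.09). HSPA9, the mitochondrial HSP70, had a log2 fold change of 1.79. PTCD3, of the mitochondrial ribosome, fell (log2 fold change -0.62), as did NOP56, a core protein of box C/D particles (-0.58).

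Ribosomal protein mRNAs, which are known for a TOP start, stayed near 0 on the deposited scale. By the definition above, which reads only the annotated start, 3 of the 8 host genes examined had a pyrimidine start. Of 78 tested genes 14 rose, 12 fell (7 without YM155 replicate 2) and 52 did not pass, with a median log2 fold change of 0.00118, and under upper-quartile scaling 1 rose and 70 fell. RPL28 rose (log2 fold change 0.48, but -0.00296 under quantile normalization), as did RPS2 (0.38, a call kept under 1 of 4 scalings), and RPL6 (-1.12) and RPL13A (-0.37) fell. RPL41, the most abundant that did not pass, was at 7826 ± 30.1 FPKM with YM155 and 7446 ± 592 FPKM with DMSO (SD, n = 3 each). Of 16 TOP mRNAs listed apart from these, mostly of translation factors but with FAU, which did not pass, in both lists, 11 rose and 1 fell, with a median of 0.21, and under upper-quartile scaling 3 rose and 10 fell. For both lists the shares on the deposited scale were 43.6% higher and 41.0% lower over all tested genes, and 60.3% and 26.3% over the abundant ones. EEF2, the translocation factor of elongation, rose 1.84-fold and PABPC1, the cytoplasmic poly(A)-binding protein, 1.61-fold, HNRNPA1 fell (log2 fold change -0.27), and EEF1G did not pass (2461 ± 87.7 FPKM with YM155 and 2493 ± 135 FPKM with DMSO, SD, n = 3 each).

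**Figure D3:**
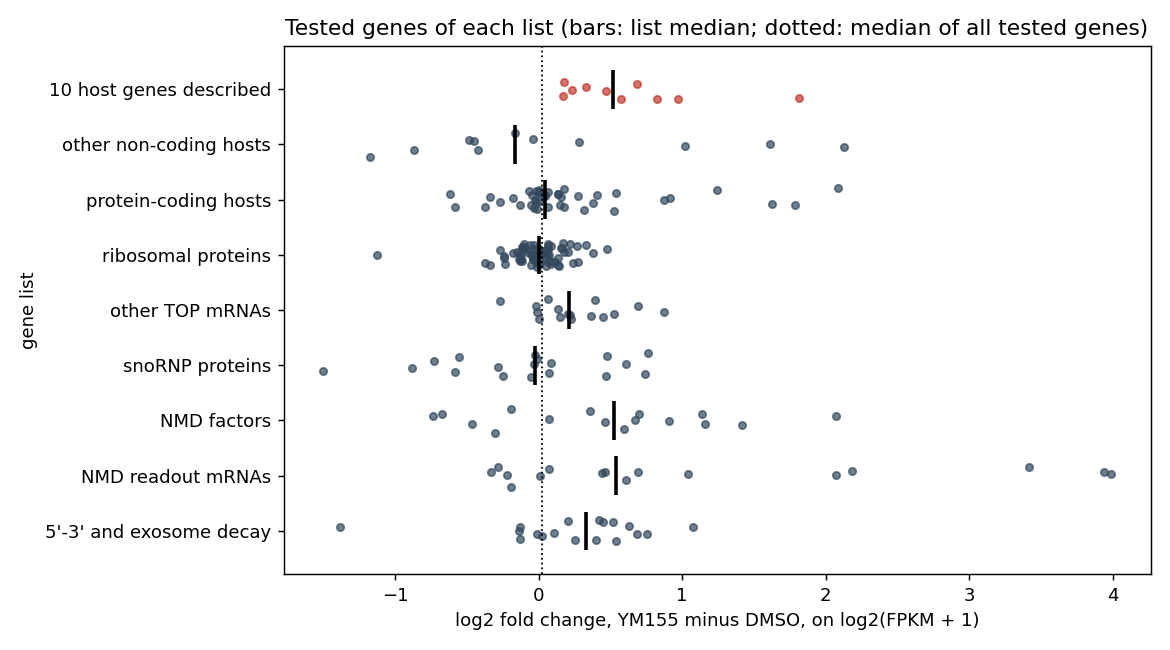
Log2 fold change, YM155 minus DMSO on log2(FPKM + 1), of every tested gene of each list, with the 10 host genes in red and the other lists in dark blue. A black bar marks each list's median and the dotted line the median of all tested genes; ribosomal protein genes gather at 0, whereas the 10 host genes lie between 0.17 and 1.82.

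The proteins that package snoRNAs did not follow the hosts. Of 18 core and assembly genes 5 rose, 7 fell and 6 did not pass on the deposited scale (median log2 fold change -0.0282), and under upper-quartile scaling 3 rose and 13 fell. Over all tested genes 43.6% rose and 41.0% fell on the deposited scale. RUVBL1, an ATPase of snoRNP assembly, fell to 30.1 ± 3.11 FPKM with YM155, against 86.9 ± 2.88 FPKM with DMSO (SD, n = 3 each; log2 fold change -1.50), and its partner PIH1D1 fell too (-0.88). NUFIP1 (0.76) and NAF1 (0.74), assembly factors of the C/D and H/ACA classes, rose. FBL, the methyltransferase of box C/D particles, was at 319 ± 17.6 FPKM with YM155 and 301 ± 12.6 FPKM with DMSO (SD, n = 3 each) and did not pass.

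Of 16 genes of NMD and translation termination 10 rose and 5 fell, beside 43.6% and 41.0% of all tested genes and 60.3% and 26.3% of the abundant ones, with a median log2 fold change of 0.53, and 9 rose and 6 fell under upper-quartile scaling. SMG1, the kinase that phosphorylates UPF1, rose 4.49-fold to 50.9 ± 4.79 FPKM with YM155, against 11.3 ± 0.268 FPKM with DMSO (SD, n = 3 each). The exon junction gene CASC3 rose 2.76-fold, whereas UPF3A (log2 fold change -0.74) and the exon junction gene RBM8A (-0.67) fell and UPF2 did not pass (30.9 ± 1.22 FPKM with YM155 and 29.3 ± 0.992 FPKM with DMSO, SD, n = 3 each). UPF1, the central helicase of NMD, was named after its value was seen and rose 1.67-fold.

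Of 16 mRNAs that are often read as signs of NMD, 10 rose and 4 fell, with a median of 0.54, and 9 rose and 6 fell under upper-quartile scaling. On the deposited scale 43.6% of all tested genes rose and 41.0% fell, and 60.3% and 26.3% of the abundant ones. DDIT3 (CHOP) rose 16.4-fold and UPP1, of uridine breakdown, 20.3-fold, and TBL2 (-0.33) and SRSF2 (-0.28) fell. SRSF3 did not pass (98.3 ± 7.62 FPKM with YM155 and 97.6 ± 6.04 FPKM with DMSO, SD, n = 3 each). The values are per gene and do not separate transcripts that NMD degrades from others of the same gene. DDIT3, ATF3 and ATF4 in this list are also genes of the integrated stress response, so the list does not read NMD alone, and it shares SMG1, SMG5, UPF2 and UPF3B with the factors above. Of 18 genes of mRNA decapping, 5′ to 3′ decay, deadenylation and the exosome 10 rose and 3 fell, beside the same shares, with a median of 0.33. Only 1 fell without DMSO replicate 1, DMSO replicate 2 or YM155 replicate 3, while 6 rose and 7 fell under upper-quartile scaling. The decapping enzyme DCP2 rose 2.29-fold and the exonuclease XRN1 1.90-fold, the decapping cofactor DCP1B fell 3.56-fold, DDX6 fell 1.10-fold, and LSM7 did not pass (134 ± 16.1 FPKM with YM155 and 116 ± 9.59 FPKM with DMSO, SD, n = 3 each).

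Listed snoRNAs of the 10 hosts were matched to 33 rows, with none matched for SNORA73A, but these libraries select polyadenylated RNA and FPKM measures such short RNAs poorly. Of the 33 rows 20 were listed at 0 in all 6 libraries, among them 9 of the 10 SNORD rows of GAS5, and 5 were above 0 in all 6. SNORD22, in SNHG1, was listed at 144, 112 and 64.5 FPKM in the YM155 libraries and 211, 241 and 248 FPKM in the DMSO libraries. It fell (log2 fold change -1.19, SE 0.24, adjusted p = 0.0012 by limma), while its host rose on the same scale. SNORA61, in SNHG12, was listed at 19.8, 50.3 and 28.9 FPKM in the YM155 libraries and 111, 77.3 and 49.4 FPKM in the DMSO libraries, so the groups overlapped, and it fell by limma (log2 fold change -1.26, SE 0.34, adjusted p = 0.0073) beside the largest rise of any of the 10 hosts. SNORA73B, in SNHG3, was listed at 163, 122 and 91.9 FPKM in the YM155 libraries and 86.1, 60.9 and 61.9 FPKM in the DMSO libraries and rose (log2 fold change 0.82, SE 0.20, adjusted p = 0.0037 by limma). SNORA24 and SNORA9 were above 0 in all 6 libraries and did not pass (adjusted p of 0.71 and 0.17 by limma). Reads of a host that keeps an intron can fall in these rows, and whether they did was not tested.

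The 2 snoRNAs whose rows fell while their hosts rose are shown from GENCODE release 29 transcripts, 5′ to 3′, with the last CTGA (box D) of SNORD22 and the last ACA of SNORA61 in capitals.
SNORD22 (GRCh38 chr11:62852910-62853035, minus strand): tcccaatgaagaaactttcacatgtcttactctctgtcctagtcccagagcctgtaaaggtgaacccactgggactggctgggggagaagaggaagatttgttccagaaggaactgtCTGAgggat
SNORA61 (GRCh38 chr1:28579764-28579893, minus strand): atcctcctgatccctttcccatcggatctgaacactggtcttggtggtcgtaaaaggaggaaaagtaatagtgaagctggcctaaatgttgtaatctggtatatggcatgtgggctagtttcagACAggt
The ACA of SNORA61 lies 3 bases from its end, where the box of this class is known to lie. TGATGA, the sequence sought as box C of the C/D class, did not occur in SNORD22.

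By RefSeq bounds (GRCh38.p14), 3 host genes lie within 1 kb of a protein-coding gene on the opposite strand without overlapping it. SNHG1 and ZFAS1 lie head to head with theirs, the starts nearest each other, whereas SNHG8 and its neighbour PRSS12 lie tail to tail. SNHG1 lies 223 bases from SLC3A2, the heavy chain of amino acid exchangers. SLC3A2 was at 1016, 1020 and 988 FPKM in the YM155 libraries and 77.4, 83.6 and 75.8 FPKM in the DMSO libraries, a ratio of 12.8, whereas that of SNHG1 was 1.12. The level of SLC3A2 over that of SNHG1 was 6.85, 7.37 and 7.12 in the YM155 libraries and 0.582, 0.649 and 0.649 in the DMSO libraries, so the more abundant gene of this pair changed between treatments.

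ZFAS1 lies 120 bases from ZNFX1, a helicase gene of antiviral defence. ZNFX1 was at 23.2, 26.1 and 24.6 FPKM in the YM155 libraries and 12.9, 13.1 and 11.9 FPKM in the DMSO libraries. Its ratio of 1.95 (log2 fold change 0.91, SE 0.06, adjusted p = 8.3e-07 by limma) was near the 1.96 of ZFAS1. SNHG8 lies 214 bases from PRSS12, a serine protease gene, which was at 1.67, 1.85 and 2.00 FPKM in the YM155 libraries and 1.69, 1.46 and 1.47 FPKM in the DMSO libraries and did not pass (adjusted p = 0.089 by limma).

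**Figure D4:**
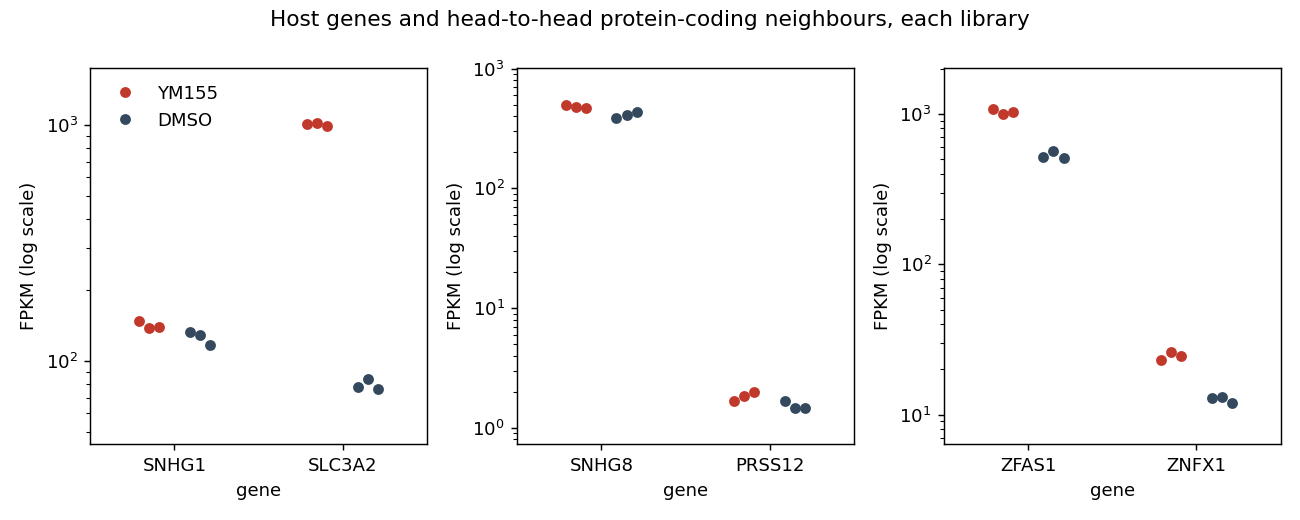
FPKM on a log axis in each library for the 3 host genes with a protein-coding neighbour on the opposite strand within 1 kb, YM155 in red left of DMSO in dark blue. Head-to-head in the heading holds for SNHG1 with SLC3A2 and ZFAS1 with ZNFX1, whereas SNHG8 and PRSS12 lie tail to tail. SLC3A2 stands at 988 to 1020 FPKM with YM155 and 75.8 to 83.6 FPKM with DMSO beside an almost level SNHG1, while ZFAS1 and ZNFX1 are displaced by a similar distance.

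Of the 20 nearest protein-coding neighbours on either side of the 10 genes 11 were tested. On the deposited scale 4 rose, 3 fell and 4 did not pass, beside 43.6% of all tested genes that rose and 41.0% that fell. These counts were not taken under the other scalings. Besides SLC3A2 and ZNFX1, AGPAT2, of phospholipid synthesis and beside SNHG7, rose 2.93-fold, and RCC1, beside SNHG12, rose 1.26-fold. SYNCRIP beside SNHG5 (log2 fold change -0.32) and CCM2 beside SNHG15 (-0.36) were among those that fell. Since use of strand in the quantification is not stated, host genes that overlap a coding gene on the opposite strand are uncertain. SNHG3 is uncertain either way, because it shares its strand with RCC1 and strand could not separate their reads. TRNAU1AP, which overlaps SNHG12 on the opposite strand, was at 10.5, 9.66 and 10.3 FPKM in the YM155 libraries and 9.86, 10.6 and 9.45 FPKM in the DMSO libraries and did not pass. RCC1, which overlaps SNHG3 on the same strand, was at 67.0, 65.3 and 63.0 FPKM in the YM155 libraries and 51.7, 53.3 and 50.4 FPKM in the DMSO libraries, higher than SNHG3 in every library. ZBTB37, which overlaps GAS5, was at 2.01 to 2.50 FPKM with YM155 and 0.945 to 1.15 FPKM with DMSO, and MCMDC2 and FAM69B, which overlap SNHG6 and SNHG7, stayed too low to be tested.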

How the data were processed

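The labels' protocols name a QIAGEN RNA extraction kit and an Illumina stranded library kit for mRNA. The authors deposited FPKM values per gene symbol, 1 table a library. The submitters' processing notes list Bowtie2 (2.3.5.1), TopHat2 (2.1.1), Cufflinks (2.2.1) with Cuffdiff, SAMtools (1.2) and build hg19. The sources used here do not give settings, annotation, read totals or use of strand. FPKM holds no counts, so no count model was used. Genes at 1 FPKM or more in at least 3 of 6 libraries were tested on log2(FPKM + 1) with limma 3.58.1 in R 4.3.3 (eBayes with trend, two-sided, Benjamini-Hochberg over all tested genes, threshold 0.05), a procedure tested on simulated data. The simulation changed a small part of the genes and did not vary the scaling, so it does not bear on the choice of scale. Ratios are of mean FPKM. The members and lists were chosen with earlier results of these data known. Named list genes are the 2 largest rises and falls among called genes and the most abundant gene that did not pass. Some genes that this rule names are not reported here. List symbols missing from the files were matched through RefSeq synonyms. RefSeq (GRCh38.p14) and GENCODE release 29 served for sequences, neighbours and strand; no hg19 coordinates were used. The stratum of genes at a mean of 30 FPKM or more, the overlapping neighbours and the promoter motifs were added after seeing the data. Alternatives were other pseudocounts, filters, scalings, eBayes settings, a replicate block, a stricter threshold and each library left out.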

Additional observations from a re-analysis of the deposited data

How the results depend on the processing

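Scaling changed most. With upper-quartile scaling, scaling to a common sum and quantile normalization, in that order, the log2 fold change of SNHG1 was -0.18, -0.15 and -0.27, that of SNHG3 -0.16, -0.14 and -0.23, that of SNHG5 -0.0141, 0.0117 and -0.11, and that of SNHG8 -0.12, -0.0930 and -0.25, while SNHG7 was at 0.0342 under quantile normalization. In the same order 6, 6 and 5 of the 10 host genes rose and 2, 1 and 3 fell. Of the decay genes 6, 6 and 6 rose and 7, 6 and 6 fell, of ribosomal protein genes 1, 1 and 3 rose and 70, 71 and 64 fell, and of protein-coding hosts 8, 8 and 8 rose and 29, 29 and 27 fell. Of other TOP mRNAs 3, 4 and 3 rose and 10, 9 and 11 fell. Of snoRNP genes 13 fell under each, and 3 rose under the first and under the second. The cause was not tested.

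Decay genes that fell numbered 1 under median-of-ratios scaling and at the 0.01 threshold. Ribosomal protein genes that fell numbered 7 with no filter on low values and at the 0.01 threshold, where SNHG1 (0.17) also lost its call. With a mean of at least 5 FPKM, 8575 genes were tested and 2922 fell. The median log2 fold change of all tested genes was then 0.189, against 0.0245 with the main filter. Of the calls, 60.2% were higher, against 51.5% with the main filter. Leaving out 1 library put SNHG1 at 0.12 to 0.21, ribosomal protein genes that fell at 7 to 15 and decay genes that fell at 1 to 2. Replicate numbers did not pair the libraries: the deviations of same-numbered libraries correlated at -0.071, -0.148 and -0.125, and no library correlated best with its own number. With the replicate block 10008 genes were called, against 10191 without it, all 10 host genes rose, and 1 decay gene fell. With 3 libraries a group and no read totals, no counting error can be given, and the rows of short snoRNAs are the least certain.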
